A study of Mus musculus with 6 samples.

Results

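Cytochrome P450 genes encode haem enzymes that insert oxygen into fatty acids, steroids, vitamins, drugs and toxins. Here they were followed in kidneys of mice treated with cisplatin and in control kidneys. The genes were taken from the deposited table by symbol (Cyp, a family number, a subfamily letter and a gene number), without Cyp24a1 and Cyp27b1. The table lists 19087 genes, of which 85 matched, and the 45 with at least 10 reads in at least 3 of the 6 libraries are described, with a short account of the other 40. Kidney tissue of WT mice was sequenced in 6 libraries, 3 from mice given cisplatin by intraperitoneal injection and 3 labelled Control. Cisplatin, a platinum compound used against tumours, forms DNA cross-links and is toxic to tubule cells. The series set injured against control kidneys to look for molecules that sensitise mice on a high-fat diet to acute kidney injury. The sources used here do not give the dose, time after injection, strain, age, sex or diet, nor how the control mice were handled. Samples are listed one by one, with no statement that each is a different mouse; the p-values therefore reflect sample-to-sample spread, part of which may be technical.

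Most kidney P450 enzymes sit in the endoplasmic reticulum membrane of proximal tubule cells and take electrons from the reductase encoded by Por, while a few sit in mitochondria and are served by ferredoxin. Enzymes of the CYP4A and CYP4F families hydroxylate the end of fatty acid chains, and from arachidonic acid some of them make 20-HETE, a regulator of vascular tone and salt transport. CYP2C and CYP2J enzymes make epoxides from the same fatty acid. CYP1, CYP2A, CYP2B, CYP2E and CYP3A enzymes are known for the oxidation of drugs and toxins, and others act on sterols, vitamin D and retinoic acid.

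Library totals of estimated counts lay between 16725665 and 18523666. Each gene was tested in edgeR's quasi-likelihood fit over all genes, and genes with an adjusted p under 0.05 are termed called. Levels for these tests are given as CPM, counts scaled to library size with TMM normalization factors. Of 14392 genes tested, 3326 (23.1%) were called higher and 3201 (22.2%) lower in cisplatin. Cisplatin replicate 3 lay nearest to the controls on the first principal component, at -29.2, against -43.0 and -51.0 for cisplatin replicates 1 and 2 and 39.2 to 42.9 for the controls. Tissue markers also moved with treatment. Summed CPM of 10 markers of the early proximal tubule was 4875, 3526 and 7235 in cisplatin replicates 1 to 3, against 14660, 15290 and 15740 in controls 1 to 3, and 7 of the 10 were called lower. Of 10 markers of the late proximal tubule 8 were called lower, with sums of 3353 to 4912 CPM in cisplatin and 8051 to 9293 CPM in controls. Other cell types moved as well. Markers of the thick limb, distal tubule and collecting duct summed to 2150 to 3634 CPM in cisplatin and 6530 to 7787 CPM in controls, with 5 of 8 called lower and 1 higher; all 6 endothelial markers were called lower, and 4 of 5 podocyte markers higher. In whole kidney, fewer cells of a type and less P450 RNA per cell cannot be told apart.

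Of the 45 P450 genes, 15 (33.3%) were called higher and 16 (35.6%) lower in cisplatin kidneys by edgeR, and 14 were not called. In all, 68.9% were called, against 45.4% of all genes tested. A change of at least 2-fold was called upward in 12 genes (26.7%) and downward in 12 (26.7%), against 7.43% and 5.36% of all genes tested. The CPM values of the groups did not overlap for 33 genes (73.3%), against 57.6% of all genes tested. The median log2 fold change was -0.21, against 0.01 over all genes tested. These counts were not tested as a group. Cyp2b10 and Cyp2d10 reached 10 reads in cisplatin libraries alone, and Cyp2c69 and Cyp2j8 in control libraries alone, so their differences are partly set by the read rule. The directions differed by family: the 4 called CYP4A genes were higher, the 4 called CYP2J genes were lower, and the CYP2D and CYP4F families split.

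**Figure D1:**
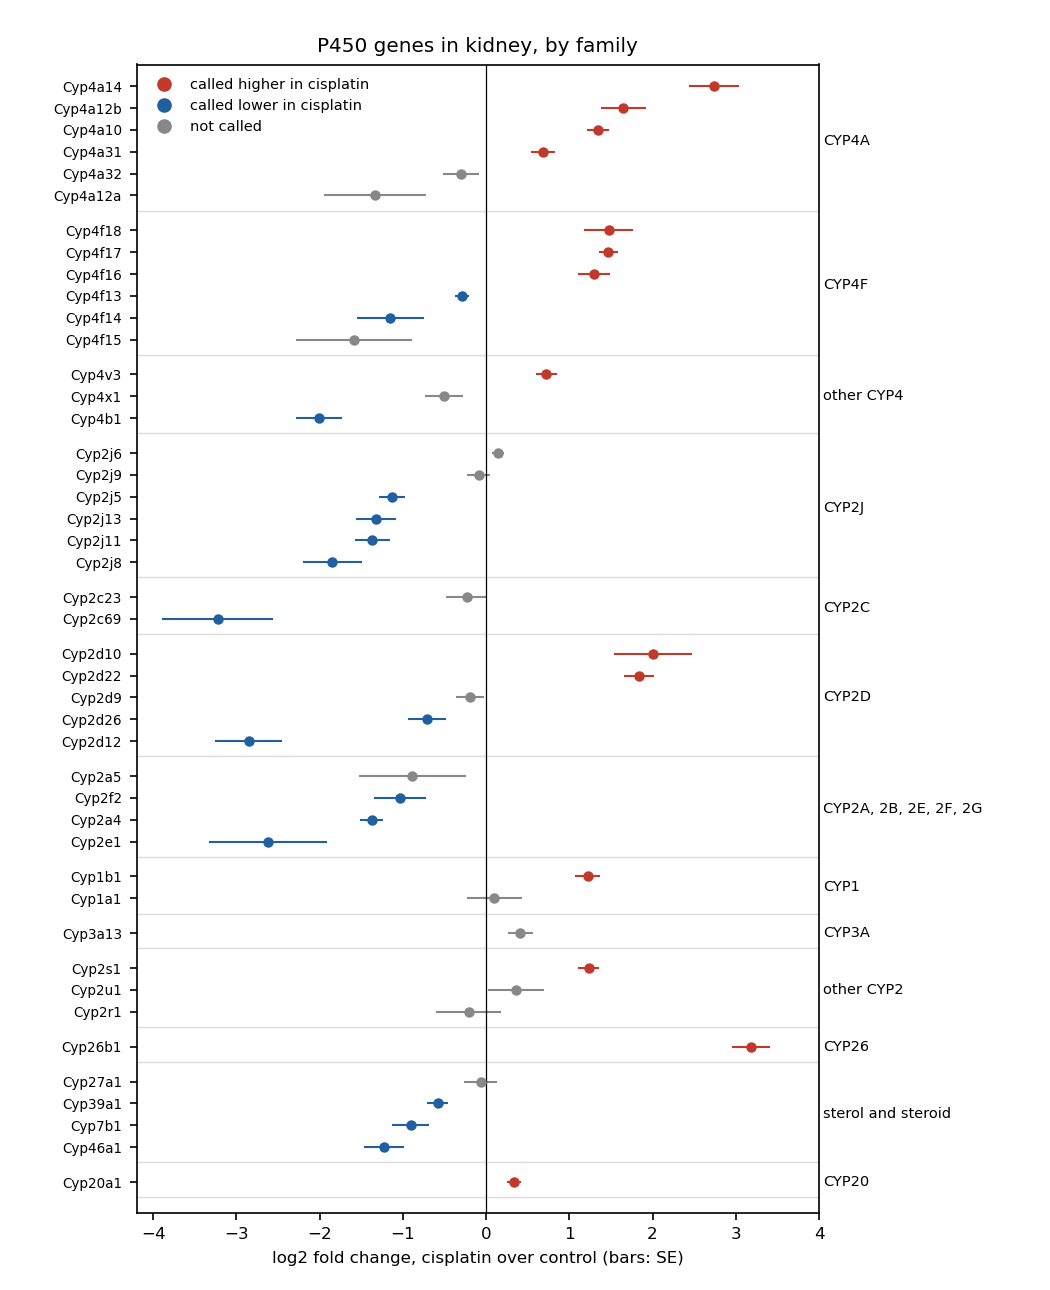
Log2 fold change of cisplatin over control (x axis) for 44 P450 genes grouped by family (y axis). Points are edgeR estimates, bars their SE, and colours mark genes called higher (red), called lower (blue) or not called (grey); Cyp2b10, with no control count, is left out. CYP4A genes reach 2.74 and the lowest point is Cyp2c69 at -3.22.

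Levels of different genes were compared in TPM, which divides by transcript length. The 45 genes together had 5819, 5232 and 7397 TPM in cisplatin replicates 1 to 3, against 7650, 7152 and 7967 TPM in controls 1 to 3. The cisplatin mean was 0.810 of the control mean, and on summed CPM it was 0.747. TPM also moves with the largest transcripts of a library. Kap, an androgen-regulated kidney transcript, held 29116 ± 7358 TPM in cisplatin and 125859 ± 9196 TPM in controls (SD, n = 3 each).

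The make-up of this pool differed more than its size. In cisplatin kidneys the 6 CYP4A genes held 55.8%, 58.1% and 52.2% of the summed P450 TPM in replicates 1 to 3, against 15.3%, 15.99% and 14.95% in controls 1 to 3. Cyp4b1, Cyp2e1 and Cyp2j5 together held 23.0% ± 4.1 of it in cisplatin and 61.5% ± 2.4 in controls (SD, n = 3 each). In cisplatin kidneys Cyp4a10 ranked 1 by mean TPM at 1822 ± 176 TPM, Cyp4a31 ranked 2 at 766 ± 96.5 TPM and Cyp4a14 ranked 3 at 701 ± 151 TPM. The last of these differed from Cyp4a31, and from Cyp4b1 at 651 ± 200.4 TPM, by less than their spread. In control kidneys Cyp4b1 ranked 1 at 2234 ± 438 TPM, Cyp2e1 ranked 2 at 1477 ± 77.2 TPM and Cyp2j5 ranked 3 at 961 ± 66.7 TPM. The share of the CYP2J genes was 11.7% ± 0.3 in cisplatin and 17.2% ± 1.5 in controls. That of the CYP2A, 2B, 2E and 2F genes was 8.8% ± 3.8 in cisplatin and 27.3% ± 1.9 in controls. No test was run on these shares.

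**Figure D2:**
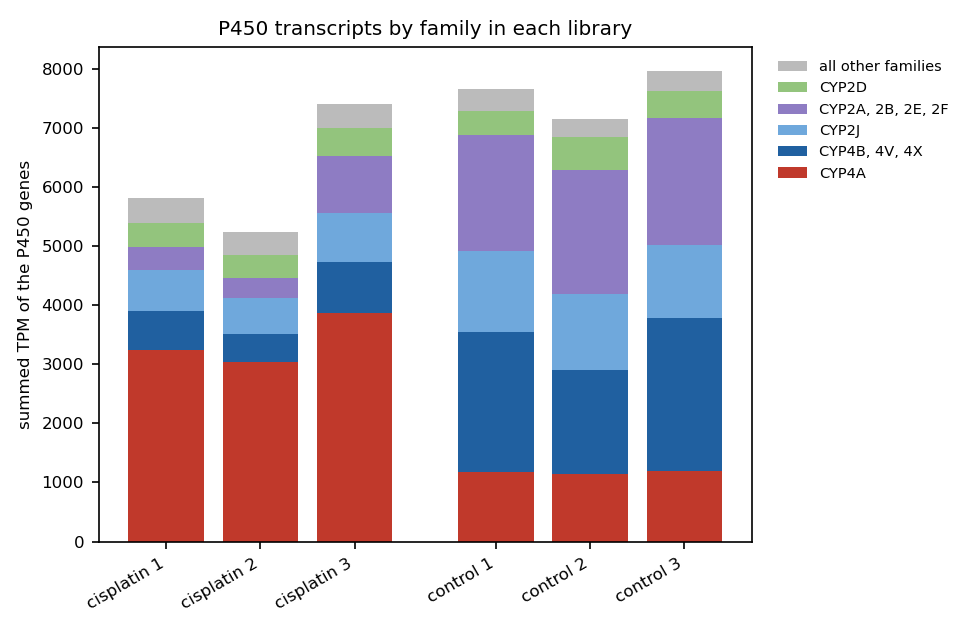
Summed TPM of the 45 P450 genes (y axis) in each library (x axis), stacked by family. The red CYP4A segment makes up 52.2% to 58.1% of the cisplatin bars and 14.95% to 15.99% of the control bars, and the dark blue segment, which is mostly Cyp4b1, is smaller in cisplatin.

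The CYP4A genes encode fatty acid omega-hydroxylases and are textbook targets of the receptor PPAR-alpha. In cisplatin kidneys 4 of the 6 were called higher, none lower and 2 not, where 23.1% of all genes tested were called higher and 22.2% lower. Cyp4a14 had 844, 727 and 1214 CPM in cisplatin replicates 1 to 3, against 138, 185 and 94.1 CPM in controls 1 to 3. All cisplatin libraries lay above all controls (log2 fold change 2.74, SE 0.30, with an edgeR adjusted p of 0.000503). Cyp4a10, the most abundant P450 transcript of the cisplatin kidneys, had 1867, 1821 and 2387 CPM there, against 825, 774 and 795 CPM in controls (log2 fold change 1.34, SE 0.14; edgeR adjusted p = 0.000176). Its neighbour Cyp4a31 had 1017, 838 and 1195 CPM in cisplatin, against 608, 602 and 686 CPM in controls (log2 fold change 0.69, SE 0.14; edgeR adjusted p = 0.00533). For both genes the groups did not overlap, and replicate 3 was the highest cisplatin library. Cyp4a32 averaged 5.58 ± 1.12 CPM in cisplatin and 6.87 ± 1.74 CPM in controls and was not called.

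The CYP4A genes have near-identical copies, which matters for how reads were shared out among them. The following are 30 bases of each coding sequence (GENCODE M21 transcripts, GRCm38) around the haem-binding loop, the stretch that carries the cysteine holding the haem iron; capitals mark the cysteine codon.
Cyp4a10: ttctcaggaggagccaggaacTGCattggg
Cyp4a31: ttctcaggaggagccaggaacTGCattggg
Cyp4a32: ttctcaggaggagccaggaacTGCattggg
Cyp4a12a: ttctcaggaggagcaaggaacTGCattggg
Cyp4a12b: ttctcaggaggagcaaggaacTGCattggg
Cyp4a14: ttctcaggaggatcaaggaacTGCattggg
Cyp4a10, Cyp4a31 and Cyp4a32 did not differ in this stretch, Cyp4a12a and Cyp4a12b differed from them by 1 base, and Cyp4a14 by 2. The whole coding sequences of Cyp4a31 and Cyp4a32 were 96.6% and 97.2% identical to that of Cyp4a10, and those of Cyp4a12a and Cyp4a12b were 98.5% identical to each other. Of all 50-base words in the transcript, 30.5% of those of Cyp4a10, 21.8% of those of Cyp4a31 and 46.8% of those of Cyp4a32 also occurred in another gene, against 0.2% for Cyp4a14. How the authors' counting divided such reads is not given in the sources used here, so the values of single copies are uncertain, that of Cyp4a14 least. Summed over Cyp4a10, Cyp4a31 and Cyp4a32, CPM was 3047 ± 481 in cisplatin and 1437 ± 54.1 in controls (SD, n = 3 each), with no overlap.

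Cyp4a12a and Cyp4a12b, which encode arachidonic acid omega-hydroxylases, had opposite signs. Cyp4a12b had 67.7, 90.5 and 91.0 CPM in cisplatin, against 16.9, 36.1 and 26.3 CPM in controls (log2 fold change 1.65, SE 0.27; edgeR adjusted p = 0.00295). Cyp4a12a had 18.7, 10.9 and 56.7 CPM in cisplatin, against 65.7, 95.5 and 54.8 CPM in controls. Cisplatin replicate 3 lay among the controls, and Cyp4a12a was not called (log2 fold change -1.33, SE 0.61; edgeR adjusted p = 0.13). With that library left out it was called lower, at -2.29 (edgeR adjusted p = 0.00674). Of the 50-base words of these transcripts, 48.9% of those of Cyp4a12a and 49.4% of those of Cyp4a12b occurred in the other copy. Summed over the pair, CPM was 111.8 ± 31.9 in cisplatin and 98.5 ± 28.7 in controls, a difference smaller than the spread.

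**Figure D3:**
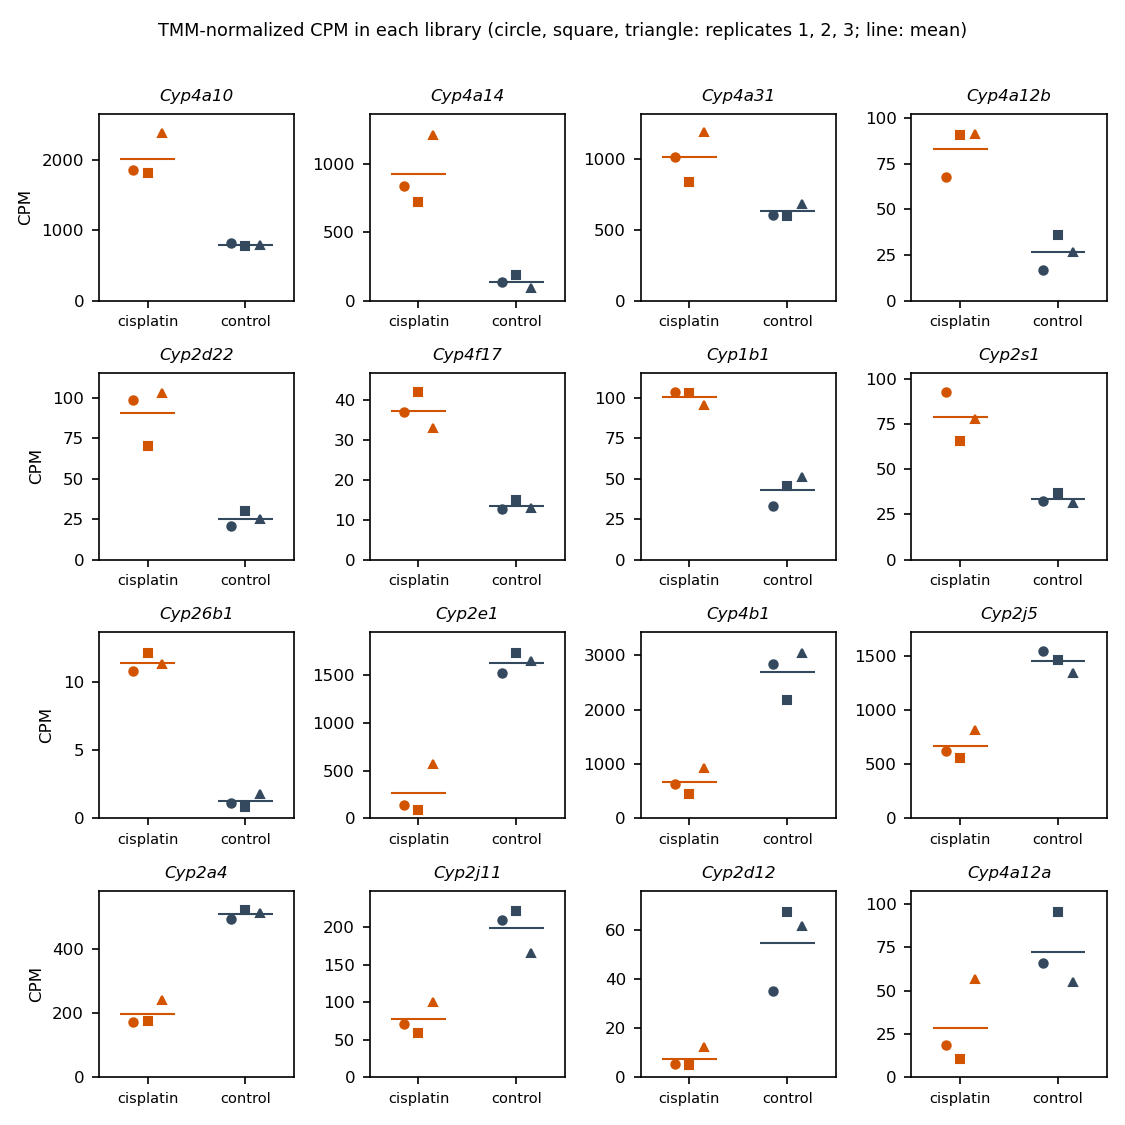
TMM-normalized CPM (y axis, from 0) of 16 P450 genes in each library (x axis, group; symbols mark replicates 1, 2 and 3, lines the group mean). In the first 9 genes, Cyp4a10 to Cyp26b1, which were called higher, every cisplatin symbol lies above every control symbol; in Cyp2e1 and Cyp4a12a the cisplatin triangle, replicate 3, stands apart from the other cisplatin libraries.

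Cyp4b1, a fatty acid and xenobiotic hydroxylase of the same gene cluster, went the other way. It had 636, 444 and 925 CPM in cisplatin replicates 1 to 3, against 2832, 2176 and 3048 CPM in controls 1 to 3. The groups were far apart (log2 fold change -2.01, SE 0.27, with an edgeR adjusted p of 0.000912). Its haem loop differs from those of CYP4A at several bases and reads as follows.
Cyp4b1: ttttctgcagggcccaggaatTGCattggg
Of the other 2 CYP4 genes outside CYP4A and CYP4F, Cyp4v3, a fatty acid hydroxylase of the eye disorder Bietti crystalline dystrophy in its human form, was called higher at 12.9 ± 0.455 CPM in cisplatin and 7.81 ± 0.947 CPM in controls. Cyp4x1, a P450 known from brain, was not called (log2 fold change -0.51; edgeR adjusted p = 0.103), and without control replicate 3 it was called lower (-0.68; edgeR adjusted p = 0.0496).

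The CYP4F genes encode omega-hydroxylases of arachidonic acid and of leukotriene B4. Of 6 genes 3 were called higher and 2 lower, and 1 was not called. Cyp4f17 had 36.8, 41.8 and 32.9 CPM in cisplatin, against 12.5, 14.9 and 12.8 CPM in controls (log2 fold change 1.47, SE 0.11, with an edgeR adjusted p of 4.64e-05). Cyp4f18, known in mouse as the leukotriene B4 hydroxylase of neutrophils, had 2.57, 2.38 and 2.76 CPM in cisplatin, against 0.732, 0.674 and 1.37 CPM in controls (log2 fold change 1.47, SE 0.30, with an edgeR adjusted p of 0.0046). For both, each cisplatin library exceeded each control library. Beside Cyp4f18, 3 of 8 macrophage and monocyte markers were called higher and 3 lower, against 23.1% and 22.2% of all genes tested. Neutrophils had no marker list of their own, so these counts do not describe them. The part of blood cells in the rise of Cyp4f18 was not tested. Cyp4f16 was also called higher, at 21.5 ± 4.75 CPM in cisplatin and 8.76 ± 1.68 CPM in controls; 26.5% of its 50-base words occurred in another gene. Cyp4f13, the most abundant member, averaged 45.9 ± 3.81 CPM in cisplatin and 56.2 ± 2.25 CPM in controls (log2 fold change -0.29; edgeR adjusted p = 0.0182). Cyp4f13 was not called with scaling to library size alone (-0.16; edgeR adjusted p = 0.0957), nor without cisplatin replicate 1 or 2 or control replicate 2 or 3 (edgeR adjusted p 0.0532 to 0.0756). Cyp4f14 lay under 3 CPM in every library and was called lower (-1.15; edgeR adjusted p = 0.044). Its call held without cisplatin replicate 3 (-1.75) and was lost when any other single library was left out (edgeR adjusted p 0.0666 to 0.145), and with the replicate block (edgeR adjusted p = 0.0693). Cyp4f15 was not called (-1.59; edgeR adjusted p = 0.0965), except without cisplatin replicate 3 (-2.71; edgeR adjusted p = 0.0125) and with the replicate block (edgeR adjusted p = 0.0443).

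The CYP2J genes encode arachidonic acid epoxygenases and related hydroxylases, and Cyp2j5 is the major form of mouse kidney, where it is androgen-regulated. Of 6 genes 4 were called lower, none higher and 2 not, where 22.2% of all genes tested were called lower and 23.1% higher. Cyp2j5 had 622, 557 and 812 CPM in cisplatin replicates 1 to 3, against 1545, 1464 and 1339 CPM in controls 1 to 3 (log2 fold change -1.13, SE 0.15; edgeR adjusted p = 0.000733). Cyp2j11 had 71.9, 59.3 and 101 CPM in cisplatin, against 210.0, 222 and 166 CPM in controls (log2 fold change -1.37, SE 0.21; edgeR adjusted p = 0.00185). Cyp2j13 had 94.6, 63.1 and 123 CPM in cisplatin, against 195, 266 and 241 CPM in controls (log2 fold change -1.32, SE 0.24; edgeR adjusted p = 0.00458). In all 3 genes the groups did not overlap. Cyp2j8 was scarce, at 0.353, 0.304 and 0.282 CPM in cisplatin, against 0.855, 1.47 and 1.12 CPM in controls (log2 fold change -1.85, with an edgeR adjusted p of 0.00369). It passed the read rule through control libraries alone. Cyp2j6 averaged 66.9 ± 3.0 CPM in cisplatin and 60.7 ± 1.99 CPM in controls, and Cyp2j9 averaged 23.0 ± 4.49 CPM in cisplatin and 24.4 ± 2.12 CPM in controls; neither was called. With scaling to library size Cyp2j6 was called higher (log2 fold change 0.28; edgeR adjusted p = 0.0107), and Cyp2j9 changed sign to 0.04. At most 1.3% of the 50-base words of any of these 6 transcripts occurred in another gene.

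Epoxide hydrolases open the epoxides that P450 enzymes make, and the soluble enzyme, encoded by Ephx2, turns the arachidonic acid epoxides into diols. Ephx2 had 257, 219.8 and 364 CPM in cisplatin, against 494, 541 and 484 CPM in controls (log2 fold change -0.85, SE 0.18; edgeR adjusted p = 0.00567). Ephx1, the microsomal enzyme that acts mainly on epoxides of foreign compounds, had 571, 644 and 599.9 CPM in cisplatin, against 74.8, 80.5 and 82.0 CPM in controls (log2 fold change 2.93, SE 0.10; edgeR adjusted p = 7.2e-07). The 2 hydrolases thus moved in opposite directions, each without overlap between groups. Ephx3 was not called.

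Cyp2e1, which oxidises ethanol, acetone and many small solvents and is androgen-dependent in mouse kidney, ranked 2 in control kidneys and 6 in cisplatin kidneys by mean TPM. It lies at chr7:140763819-140774990 (GRCm38.p6). It had 138, 91.0 and 568 CPM in cisplatin replicates 1 to 3, against 1522, 1733 and 1649 CPM in controls 1 to 3. Replicate 3 was well above the other cisplatin libraries and well below every control. The log2 fold change was -2.62 (SE 0.71; edgeR adjusted p = 0.0265). Without cisplatin replicate 3 it was -3.84 (edgeR adjusted p = 2.34e-06), and the call was lost without cisplatin replicate 1 (-2.31; edgeR adjusted p = 0.0621) or replicate 2 (-2.21; edgeR adjusted p = 0.0795). With no filter on low counts the edgeR adjusted p was 0.0685.

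Cyp2a4 and Cyp2a5, close copies on chromosome 7 known in mouse as the steroid 15-alpha-hydroxylase and the coumarin 7-hydroxylase, share their haem loop.
Cyp2a4: ttttccattggaaaacggtatTGTttcgga
Cyp2a5: ttttccattggaaaacggtatTGTttcgga
Cyp2e1: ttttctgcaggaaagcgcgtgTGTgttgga
Cyp2a4 had 173, 175 and 241 CPM in cisplatin, against 493, 521 and 513 CPM in controls (log2 fold change -1.37, SE 0.14; edgeR adjusted p = 0.000171). Cyp2a5 had 43.7, 20.6 and 134 CPM in cisplatin, against 115, 122 and 129 CPM in controls, and replicate 3 lay above all controls. It was not called with all libraries (log2 fold change -0.89, SE 0.65, with an edgeR adjusted p of 0.31) but was called lower without cisplatin replicate 3 (-1.93; edgeR adjusted p = 0.00897). Of their 50-base words, 38.0% and 40.8% occurred in another gene. The sum of the pair was 262.5 ± 98.1 CPM in cisplatin and 631 ± 20.6 CPM in controls, with no overlap. Cyp2f2, a lung-type enzyme that activates naphthalene, was called lower at 2.95 ± 1.39 CPM in cisplatin and 6.0 ± 0.583 CPM in controls (log2 fold change -1.03; edgeR adjusted p = 0.0272). That call was lost without cisplatin replicate 1 or any single control library (edgeR adjusted p 0.0623 to 0.0899). Cyp2b10, the phenobarbital-inducible enzyme of mouse liver, had no control count and 1.61, 0.608 and 2.42 CPM in cisplatin. The cisplatin libraries together had 87 counts; with the controls set to a floor of 3 counts as a group, this is at least 24.7-fold higher. It was called higher by edgeR (adjusted p = 0.00572), and floors cover counting error only. The bound takes the 87 counts as they are, though the cisplatin libraries ranged from 12 to 43. Cyp2b10 passed the read rule through cisplatin libraries alone, so its difference is partly set by that rule.

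Of the 5 CYP2D genes 2 were called higher and 2 lower, and 1 was not called, where 23.1% of all genes tested were called higher and 22.2% lower. Cyp2d22, considered the nearest mouse counterpart of the human drug-metabolising enzyme CYP2D6, had 98.5, 70.0 and 103 CPM in cisplatin, against 20.8, 29.9 and 25.2 CPM in controls (log2 fold change 1.84, SE 0.18; edgeR adjusted p = 0.000245). Cyp2d12 had 5.5, 5.12 and 12.3 CPM in cisplatin, against 35.3, 67.4 and 61.7 CPM in controls (log2 fold change -2.85, SE 0.40; edgeR adjusted p = 0.00206). Neither gene had overlapping groups. Cyp2d26 had 135, 98.1 and 186 CPM in cisplatin, against 195, 266 and 224 CPM in controls (log2 fold change -0.71, SE 0.23; edgeR adjusted p = 0.0418). This call was lost under 6 alternatives, namely scaling to library size (-0.58; edgeR adjusted p = 0.0502), no filter on low counts (edgeR adjusted p = 0.0677), and leaving out cisplatin replicate 1 or any single control library (edgeR adjusted p 0.0529 to 0.121). Cyp2d9, the male-specific steroid 16-alpha-hydroxylase of mouse liver, averaged 163 ± 26.8 CPM in cisplatin and 186 ± 38.9 CPM in controls and was not called. Cyp2d10 was scarce and called higher, at 0.846 ± 0.264 CPM in cisplatin and 0.204 ± 0.0928 CPM in controls. It passed the read rule through cisplatin libraries alone. Between 6.1% (Cyp2d22) and 40.5% (Cyp2d10) of the 50-base words of the 5 transcripts occurred in another gene.

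Of the CYP2C genes only 2 of 11 passed the read rule. Cyp2c23, known in mouse kidney as an arachidonic acid epoxygenase, had 37.0, 31.2 and 53.3 CPM in cisplatin, against 47.4, 59.5 and 36.0 CPM in controls. The groups overlapped and it was not called (log2 fold change -0.23, SE 0.24; edgeR adjusted p = 0.468). Cyp2c69 had 0.0505, 0 and 0.338 CPM in cisplatin, against 1.28, 1.04 and 1.30 CPM in controls (log2 fold change -3.22, SE 0.67; edgeR adjusted p = 0.00519). Leaving out cisplatin replicate 3 moved the estimate to -5.24. Cyp2c69 passed the read rule through control libraries alone. Of the Cyp2c69 words 54.8% occurred in another gene, most often Cyp2c40, so its counts are uncertain.

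The CYP1 genes are the classical targets of the aryl hydrocarbon receptor, which binds DNA at elements with the core GCGTG. Cyp1b1, which oxidises oestrogens, retinoids and polycyclic hydrocarbons, had 103, 103 and 95.3 CPM in cisplatin, against 32.9, 45.6 and 51.0 CPM in controls (log2 fold change 1.22, SE 0.15; edgeR adjusted p = 0.000521). Cyp1a1, which is barely expressed without an inducer, had 0.959, 1.77 and 1.01 CPM in cisplatin, against 0.916, 1.35 and 1.24 CPM in controls. Its groups overlapped (log2 fold change 0.10, SE 0.33, with an edgeR adjusted p of 0.824), and its sign changed without cisplatin replicate 2 (-0.24) or control replicate 1 (-0.049). The 250 bases before the start site of each gene in the RefSeq table (GRCm38.p6) are shown because this is where the receptor's core was searched for; capitals mark a match on either strand. They lie at chr9:57697363-57697612 on the plus strand for Cyp1a1, whose annotated extent begins further upstream, and at chr17:79715062-79715311 on the minus strand for Cyp1b1.
Cyp1a1: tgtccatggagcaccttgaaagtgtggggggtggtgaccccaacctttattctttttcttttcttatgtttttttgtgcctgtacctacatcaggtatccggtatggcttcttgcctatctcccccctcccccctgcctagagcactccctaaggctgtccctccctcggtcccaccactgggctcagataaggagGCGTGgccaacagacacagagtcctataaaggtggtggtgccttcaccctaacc
Cyp1b1: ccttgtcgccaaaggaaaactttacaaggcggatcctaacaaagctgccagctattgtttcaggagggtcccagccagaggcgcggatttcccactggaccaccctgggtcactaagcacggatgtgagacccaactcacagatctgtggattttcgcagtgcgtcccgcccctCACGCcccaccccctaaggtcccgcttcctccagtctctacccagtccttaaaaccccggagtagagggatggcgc
Each window held 1 match. The motif also occurred in 32.4% of 32851 RefSeq promoters, counted over 250 bases before to 50 after the start, and in 11 of 32 described P450 genes with a promoter in that table, so a match is common and describes letters alone. Of 8 tested receptor targets outside the P450 family 5 were called higher and none lower by edgeR, with a median log2 fold change of 0.91. Shares over all genes tested were 23.1% higher and 22.2% lower. Without control replicate 1 or any single cisplatin library, 1 of the targets was called lower. With all libraries, 1 was also called lower by the DESeq2 Wald test and with no filter on low counts. Aldh3a1, a scarce gene of the list that was not tested, had 0.124 ± 0.064 CPM in cisplatin and 0.574 ± 0.074 CPM in controls, without overlap. Gsta1, a glutathione transferase, had the largest change, at 60.7 ± 7.79 CPM in cisplatin and 0.674 ± 0.302 CPM in controls, and has near-identical copies. Xdh, xanthine dehydrogenase, had 142 ± 6.04 CPM in cisplatin and 31.3 ± 1.09 CPM in controls. Genes of this list such as Gsta1 are also known targets of the oxidative stress factor encoded by Nfe2l2, which itself belongs to the list and was called higher. Ahr, the receptor's own gene, had 9.24 ± 0.884 CPM in cisplatin and 8.52 ± 0.949 CPM in controls and was not called.

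Cyp26b1, which breaks down retinoic acid, had the largest fold rise among the described P450 genes with counts in both groups. It lies at chr6:84571414-84593908 (GRCm38.p6). It had 10.8, 12.1 and 11.3 CPM in cisplatin replicates 1 to 3, against 1.10, 0.857 and 1.80 CPM in controls 1 to 3 (log2 fold change 3.18, SE 0.23; edgeR adjusted p = 3.35e-05). The cisplatin libraries were close together and far above the controls, but the level remained low beside most P450 genes, at 4.0 ± 0.307 TPM in cisplatin and 0.37 ± 0.164 TPM in controls. Of 14 tested retinoid genes 3 were called higher and 2 lower, with a median of 0.06; 6 were called higher without cisplatin replicate 3 and 5 without control replicate 2. Those with the largest changes were retinaldehyde dehydrogenases, which make retinoic acid. Aldh1a1 had 112, 109 and 126 CPM in cisplatin, against 2.81, 3.92 and 3.97 CPM in controls (log2 fold change 5.01; edgeR adjusted p = 3.09e-07). Aldh1a2 had 43.2, 48.2 and 21.4 CPM in cisplatin, against 3.30, 5.51 and 4.04 CPM in controls (log2 fold change 3.14; edgeR adjusted p = 0.000748). For both genes the groups did not overlap. Other retinaldehyde dehydrogenases did not share this direction: Aldh8a1 was called lower (log2 fold change -0.95; edgeR adjusted p = 0.0073), and Aldh1a3 was not called. The shares of the list called in either direction lay near or below the 23.1% higher and 22.2% lower over all genes tested.

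Of the 4 sterol, bile acid and steroid P450 genes with enough reads, 3 were called lower and none higher. Over all genes tested 22.2% were called lower and 23.1% higher. Cyp7b1, the oxysterol 7-alpha-hydroxylase, had 105, 78.4 and 76.0 CPM in cisplatin, against 199, 114 and 173 CPM in controls (log2 fold change -0.91, SE 0.22; edgeR adjusted p = 0.0143). The call was lost without cisplatin replicate 2 (edgeR adjusted p = 0.0748) or replicate 3 (edgeR adjusted p = 0.0562). Cyp39a1, another oxysterol hydroxylase, averaged 5.90 ± 0.448 CPM in cisplatin and 8.83 ± 0.33 CPM in controls, and Cyp46a1, the cholesterol 24-hydroxylase known from brain, averaged 1.38 ± 0.0763 CPM in cisplatin and 3.24 ± 0.739 CPM in controls. Cyp27a1, the mitochondrial sterol 27-hydroxylase that can also 25-hydroxylate vitamin D, had 54.7, 40.7 and 74.0 CPM in cisplatin, against 63.0, 54.9 and 59.1 CPM in controls. Cyp2r1, the main vitamin D 25-hydroxylase, had 1.31, 0.760 and 0.677 CPM in cisplatin, against 0.916, 1.53 and 0.745 CPM in controls. Neither vitamin D 25-hydroxylase was called (log2 fold changes -0.06 and -0.21; edgeR adjusted p = 0.817 and 0.689), and both changed sign under some alternatives, among them leaving out cisplatin replicate 2 for Cyp27a1 (0.12) and control replicate 2 for Cyp2r1 (0.15). A short list of 4 P450 genes whose symbols fall outside the naming rule had 3 tested, all called lower. Cyp51, the lanosterol demethylase of cholesterol synthesis, had 50.2, 52.5 and 64.5 CPM in cisplatin, against 357, 265 and 269 CPM in controls (log2 fold change -2.41; edgeR adjusted p = 1.85e-05). Tbxas1, thromboxane synthase, had 2.73 ± 0.181 CPM in cisplatin and 13.9 ± 1.77 CPM in controls (log2 fold change -2.35).

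Among the remaining genes, Cyp2s1, an epithelial enzyme of skin and airway, had 92.7, 65.8 and 77.6 CPM in cisplatin, against 32.2, 36.7 and 31.6 CPM in controls (log2 fold change 1.23, SE 0.13; edgeR adjusted p = 0.00023). Cyp20a1, a P450 without a well-known substrate, was called higher by a small amount, at 22.0 ± 1.03 CPM in cisplatin and 17.4 ± 0.982 CPM in controls (log2 fold change 0.34; edgeR adjusted p = 0.0129); the call was lost without control replicate 3 (edgeR adjusted p = 0.0536). Cyp3a13, the CYP3A gene with enough reads, had 11.7, 16.6 and 12.2 CPM in cisplatin, against 9.77, 10.5 and 10.1 CPM in controls. The groups did not overlap, and the edgeR adjusted p of 0.0512 missed the threshold (log2 fold change 0.41, SE 0.15). It was called higher without cisplatin replicate 1 (edgeR adjusted p = 0.0453) or replicate 3 (edgeR adjusted p = 0.0327), with scaling to library size (edgeR adjusted p = 0.0224), with no filter on low counts (edgeR adjusted p = 0.0476) and by limma on FPKM (adjusted p = 0.0285). Cyp2u1, a fatty acid hydroxylase, was not called (0.36; edgeR adjusted p = 0.409), except without control replicate 1 (0.87; edgeR adjusted p = 0.0387).

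Most P450 families lie in tandem clusters, and 3 of the 4 clusters chosen for display held both called rises and called falls. The choice left out neighbours on chromosome 7, between positions 25802469 and 27133660 (GRCm38.p6), in the order Cyp2s1, Cyp2b10, Cyp2a4, Cyp2a5 and Cyp2f2. Of these Cyp2s1 and Cyp2b10 were called higher, Cyp2a4 and Cyp2f2 lower, and Cyp2a5 was not called. The CYP4 cluster, at chr4:115106323-115647721 (GRCm38.p6), holds 8 of the described genes over 541 kb in the order Cyp4x1, Cyp4a12a, Cyp4a12b, Cyp4a14, Cyp4a10, Cyp4a31, Cyp4a32 and Cyp4b1. Among these genes the 4 called rises stood next to each other in the middle, and the called fall, Cyp4b1, at the end. Genes under the read rule are left out of all cluster orders given here. In the CYP2J cluster, at chr4:96042660-96664171, the 3 genes at the low-coordinate end and Cyp2j5 at the other end were called lower, and Cyp2j6 and Cyp2j9 between them were not called. In the CYP2D cluster, at chr15:82370527-82794452, Cyp2d22 and Cyp2d10 at the low-coordinate end were called higher and Cyp2d12 and Cyp2d26 at the other end lower. In the CYP4F cluster, at chr17:32506192-32947415, Cyp4f17 and Cyp4f16 were called higher and Cyp4f14 and Cyp4f13 lower. Whether position mattered was not tested, and neighbours in the CYP4A and CYP2D clusters share sequence. Cyp2d10 and Cyp2b10 passed the read rule through cisplatin libraries alone, and Cyp2j8 through control libraries alone. Their part in these patterns is thus partly set by that rule. In the RefSeq annotation Cyp4a12a, Cyp4a12b, Cyp4a14, Cyp4x1, Cyp4v3, Cyp4f18, Cyp2j13, Cyp2a4, Cyp7b1 and Cyp39a1 overlap another annotated gene, and whether the counting used strand is unknown, so reads of these neighbours may be included.

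**Figure D4:**
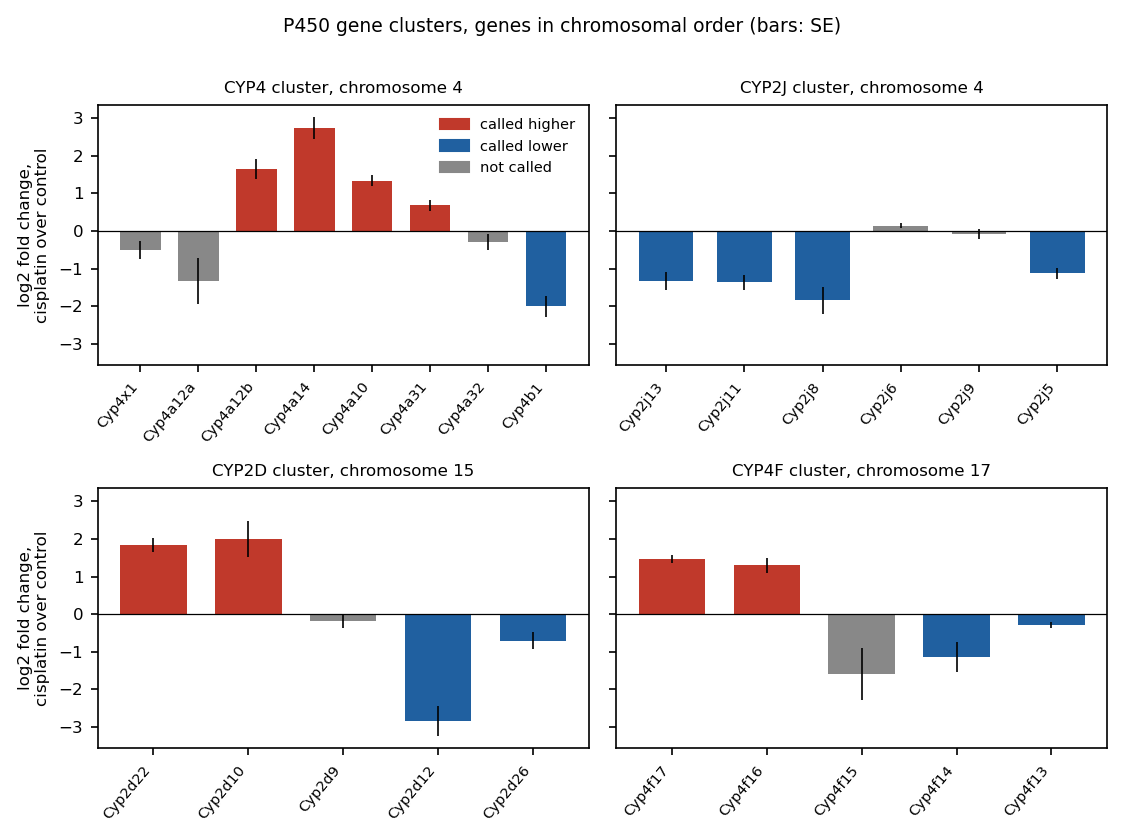
Log2 fold change of cisplatin over control (y axis) for the genes of 4 P450 clusters, in chromosomal order (x axis, not to scale); bars start at 0, lines are SE, and colours mark called higher, called lower or not called. Genes under the read rule are not drawn. Among those drawn, called rises sit side by side in the CYP4, CYP2D and CYP4F clusters, and the CYP2J cluster has no called rise. In CYP2D this rests on Cyp2d10, which passed the read rule through cisplatin libraries alone, as Cyp2j8 did through control libraries alone.

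Of 11 tested electron donors and membrane partners 2 were called higher and 5 lower, with a median log2 fold change of -0.15. Over all genes tested 23.1% were called higher and 22.2% lower. Without cisplatin replicate 1 or 2 or control replicate 1 or 3, 1 gene of the list was called higher. Por, the reductase that serves the microsomal enzymes, had 366, 354 and 359.6 CPM in cisplatin, against 486, 481 and 447 CPM in controls (log2 fold change -0.39, SE 0.09; edgeR adjusted p = 0.00665). Cyb5a, cytochrome b5, had 515, 414 and 672 CPM in cisplatin, against 883, 1022 and 858 CPM in controls (log2 fold change -0.79; edgeR adjusted p = 0.00738). Fdx1 and Fdxr, the ferredoxin and ferredoxin reductase of the mitochondrial P450 chain, had log2 fold changes of -0.73 and -0.68 (with edgeR adjusted p of 0.000807 and 0.00095). None of these 4 genes had overlapping groups.

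Of 11 genes of haem synthesis 7 were called lower and none higher, with a median of -0.35, where 22.2% of all genes tested were called lower and 23.1% higher. Uros, uroporphyrinogen III synthase, had 12.8 ± 1.97 CPM in cisplatin and 24.4 ± 1.29 CPM in controls (log2 fold change -0.93; edgeR adjusted p = 0.000515). Alas2, the erythroid form of the first enzyme, had 0.151, 0.0507 and 0.0564 CPM in cisplatin, against 5.92, 1.65 and 1.18 CPM in controls; its log2 fold change was -4.96 and, without control replicate 1, -3.92, or without cisplatin replicate 1, -5.6. Alas1, the form that serves P450 synthesis, had 253, 235 and 389 CPM in cisplatin, against 258, 167 and 149 CPM in controls. The groups overlapped and Alas1 was not called (log2 fold change 0.61, SE 0.26; edgeR adjusted p = 0.101). It was called higher with scaling to library size (edgeR adjusted p = 0.0434), by the DESeq2 Wald test (adjusted p = 0.0312), by limma on FPKM (adjusted p = 0.0347) and without control replicate 1 (edgeR adjusted p = 0.0273). Of 7 genes of haem breakdown and export 4 were called higher and 1 lower, with a median of 0.36; the gene called lower was Hmox2, the constitutive haem oxygenase (log2 fold change -0.31; edgeR adjusted p = 0.013), which was not called without cisplatin replicate 1. The difference between the synthesis and breakdown lists was not tested. Hmox1, the inducible haem oxygenase, had 217, 317 and 164 CPM in cisplatin, against 47.6, 38.6 and 48.4 CPM in controls (log2 fold change 2.37, SE 0.25; edgeR adjusted p = 0.000447). Flvcr1, a haem exporter of the plasma membrane, had 25.6 ± 3.35 CPM in cisplatin and 10.9 ± 0.413 CPM in controls (log2 fold change 1.24; edgeR adjusted p = 0.000104).

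**Figure D5:**
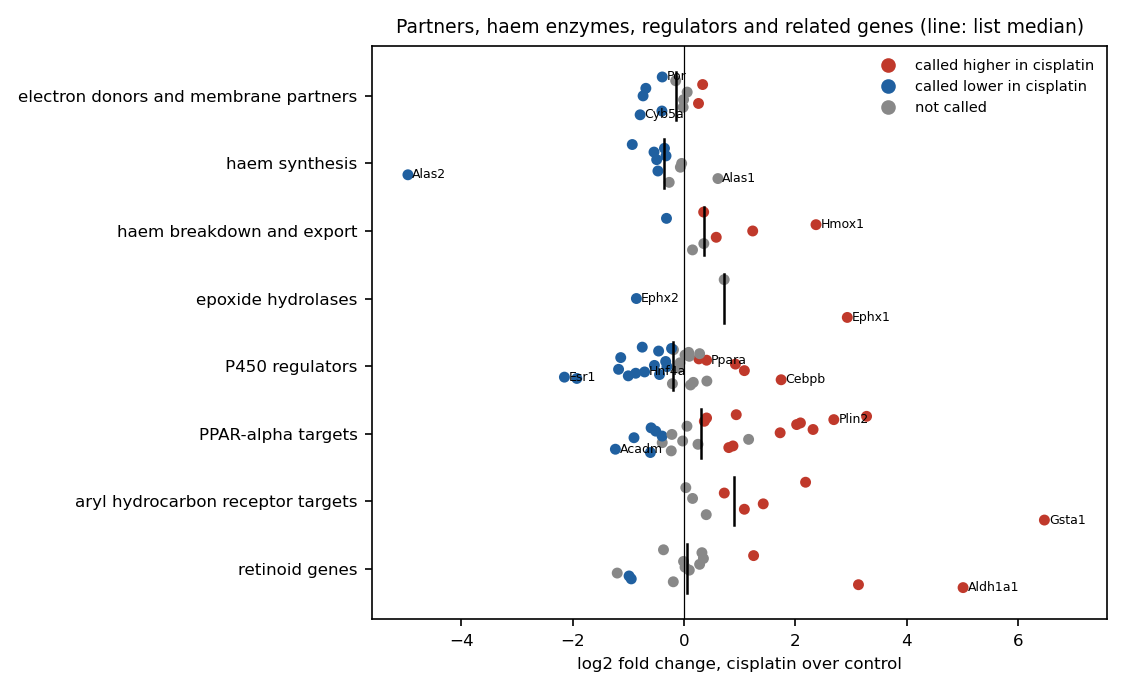
Log2 fold change of cisplatin over control (x axis) of each tested gene in 8 lists (y axis; vertical spread within a row is only for legibility). Black lines are list medians and colours mark called higher, called lower or not called. Haem synthesis has no called rise and a median of -0.35, and the haem breakdown list reaches 2.37 at Hmox1.

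Of 30 tested nuclear receptors and regulators of P450 genes 5 were called higher and 14 lower, with a median of -0.20. Among all genes tested the shares were 23.1% higher and 22.2% lower. With scaling to library size the counts of the list were 7 higher and 8 lower. Leaving out cisplatin replicate 1, control replicate 1 or control replicate 3 left 3 called higher, and leaving out cisplatin replicate 1 or control replicate 1 or 2 left 8 or 9 called lower. Hnf4a, the master regulator of hepatic and proximal tubule genes, had 459, 386 and 626 CPM in cisplatin, against 825, 779 and 794 CPM in controls (log2 fold change -0.71, SE 0.17; edgeR adjusted p = 0.00978). Esr1, the oestrogen receptor, had 3.63 ± 0.683 CPM in cisplatin and 16.1 ± 2.47 CPM in controls (log2 fold change -2.15; edgeR adjusted p = 6.1e-05). Dbp, a clock-controlled factor known to drive Cyp2a genes in mouse liver, had 55.2 ± 14.1 CPM in cisplatin and 209 ± 9.61 CPM in controls (log2 fold change -1.92; edgeR adjusted p = 0.000174). Nr1i3, the receptor CAR behind Cyp2b10 induction in mouse liver, was near 1 CPM in both groups (0.840 ± 0.307 CPM in cisplatin, 0.880 ± 0.252 CPM in controls) and not called.

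Ppara had 133, 98.9 and 143 CPM in cisplatin, against 95.9, 83.9 and 103 CPM in controls. The groups overlapped, and its call (log2 fold change 0.41, SE 0.14; edgeR adjusted p = 0.0486) was lost when any single library other than cisplatin replicate 2 was left out (edgeR adjusted p 0.0665 to 0.153). Of 24 tested PPAR-alpha targets outside the P450 family 11 were called higher and 6 lower, with a median of 0.31. The shares over all genes tested were 23.1% higher and 22.2% lower, so the called falls lay near that share. Plin2, a lipid droplet coat protein, had 769, 887 and 461 CPM in cisplatin, against 101, 112 and 115 CPM in controls (log2 fold change 2.69; edgeR adjusted p = 0.000125). Ucp3, a mitochondrial carrier, had 0.908, 2.48 and 0.959 CPM in cisplatin, against 0, 0.0612 and 0.373 CPM in controls (log2 fold change 3.28; edgeR adjusted p = 0.0134). The Ucp3 estimate was 5.28 without control replicate 3, 2.64 without cisplatin replicate 2, and not called without control replicate 2 (2.93; edgeR adjusted p = 0.0573). Called falls in the list were enzymes and carriers such as Acadm, a mitochondrial acyl-CoA dehydrogenase, at 468 ± 79.3 CPM in cisplatin and 1099 ± 178 CPM in controls.

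Among the cisplatin libraries, replicate 3 was often the highest for P450 genes, most often for those that fell. Of the 16 genes called lower it had the highest cisplatin value for 13, with a median log2 difference from the mean of the other cisplatin libraries of 0.65. For the 15 genes called higher it was the highest in 9, with a median difference of 0.15. For the 14 genes not called it was the highest in 8, with a median difference of 0.25. Over all genes tested it was the highest cisplatin library for 5551 and the lowest for 5690, with a median near 0. All genes tested mix rises and falls, and the genes called lower outside the family were not compared. Whether the pattern is particular to P450 genes therefore cannot be said, as replicate 3 lay nearest to the controls on the first principal component. The early proximal tubule marker sum was also highest there among cisplatin libraries. Slc34a1, the phosphate transporter of that segment, had 1764, 1086 and 2701 CPM in cisplatin, against 7640.4, 8288 and 8166 CPM in controls. The part of these marker differences in the P450 differences was not tested.

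Cyp2e1, Cyp4b1 and Cyp2j5, which fell here, are known as androgen-dependent in mouse kidney. These genes are not a full list of the androgen-dependent P450 genes. The Cyp4a12 pair did not share their fall: Cyp4a12b was called higher (log2 fold change 1.65), and Cyp4a12a was not called (-1.33). Summed over that pair, CPM was 111.8 ± 31.9 in cisplatin and 98.5 ± 28.7 in controls. Cyp2d9, described above as male-specific in mouse liver, was not called (log2 fold change -0.19). Of 6 androgen-dependent genes outside the family 3 were called lower, 1 higher and 2 not. For all genes tested the shares were 22.2% lower and 23.1% higher. Kap, from that list, had 7783, 6895 and 12122 CPM in cisplatin, against 48831, 44939.7 and 42524 CPM in controls. The summed CPM of 4 Y-linked genes was 131.9, 136.6 and 139.6 in cisplatin and 136.2, 121.6 and 123.7 in controls, and none of the 4 was called. The part of androgen signalling in the P450 differences was not tested.

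The other 40 matching genes did not reach the read rule and none was tested. Of these 8 had no read in any library and 12 more had under 3 counts over all 6 libraries. They included the liver genes Cyp1a2, Cyp3a11, Cyp2c29 and Cyp7a1. Of 8 tested hepatocyte markers 4 were called lower and none higher, where 22.2% of all genes tested were called lower and 23.1% higher. Sums over the hepatocyte list were 269.7 to 335 CPM in cisplatin and 355 to 517.5 CPM in controls. Among the defining ones Cps1 was at 0 in every library, and Alb lay between 0.861 and 3.10 CPM in cisplatin and between 4.6 and 6.86 CPM in controls. Cyp21a1, the steroid 21-hydroxylase of the adrenal cortex, had 9, 4 and 6 counts in cisplatin, against 0, 0 and 1 in controls, a pooled ratio of 16.2 (95% counting interval 2.57 to 673, exact Clopper-Pearson). Summed CPM of the 9 adrenal markers in the table was 6.41 to 7.25 in cisplatin and 7.26 to 8.51 in controls, with Nr5a1 at 0 in every library. Only 3 of these markers were tested, of which 1 was called higher and none lower. The adrenal P450 genes Cyp11b1 and Cyp11a1 had no count and at most 5 counts per library. Cyp2j12 had 6 counts in all cisplatin libraries together and 22 in all controls, a ratio of 0.232 (interval 0.0771 to 0.591), in the same direction as the called CYP2J genes. Such intervals cover counting error between these libraries only, and reads without molecular identifiers are not independent molecules.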

How the data were processed

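Kidney RNA of 6 samples was sequenced. Reads were aligned with HISAT to GRCm38.p6, per the submitters' processing notes; the sources used here do not name the annotation, the counter or its strand setting. The single table the authors deposited has, per the file headers, a read count, FPKM and TPM for each gene and library. Counts are the authors' estimated counts, unnormalized, with 66.2% to 67.7% whole numbers in a library. FPKM, also from the authors, is per length and library size, and the authors' TPM adds up to an equal total in all libraries. Control columns carry initials and a number only and were read as control 1 to 3.

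Counts were rounded, filtered with filterByExpr (minimum count 10), normalized with TMM factors and tested with edgeR 4.0.16 (robust quasi-likelihood F test, two-sided, group the only term, R 4.3.3), with Benjamini-Hochberg adjustment over all genes. The common biological coefficient of variation was 0.12. The procedure was tested on simulated data. Chi-square per degree of freedom between replicates was 8.66 to 53.2, above sampling noise, and all 6 libraries were kept. A floor of 3 counts over a group is 0.0523 CPM in cisplatin and 0.0614 CPM in controls. Alternatives included DESeq2 1.42.0 and limma 3.58.1 on log2(FPKM + 0.1). Positions are from RefSeq (all 85 symbols matched), coding sequences from GENCODE M21 (longest open reading frame), promoters from RefSeq.

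The members and lists were chosen with earlier results of these data known. Named were the 8 largest called rises and falls with at least 1 CPM in the higher group, the 8 most abundant genes, a list of 14 genes of known role, and per pathway list its 2 largest called changes and 10 genes of known role. Other genes named with values were chosen after their values were seen.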

Additional observations from a re-analysis of the deposited data

How the results depend on the processing

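Counts of P450 genes kept within 1.5 times of their values. Leaving out 1 library at a time gave 14 to 16 called higher and 11 to 18 called lower by edgeR, and the ratio of summed TPM stayed between 0.728 and 0.871. Over 12 alternatives for each of the 45 genes (540 in all), 489 kept direction and side of the threshold, 29 lost a call, 13 gained one and 9 changed sign; 24 of the 31 called genes were called under every one. The median log2 fold change of all genes was 0.01 with TMM factors, 0.15 with scaling to library size and 0.14 with limma on FPKM; these gave 17 higher and 13 lower, and 17 higher and 15 lower P450 genes. Genes near 0 changed sign: Cyp2j9 (0.044 with library size, 0.024 with limma), Cyp27a1 (0.061 and 0.031, and -0.31 to 0.12 with 1 library left out), Cyp2r1 (0.065 with limma, -0.56 to 0.15 with 1 left out), Cyp1a1 (-0.24 to 0.26 with 1 left out) and Nr1i3 (0.065 with library size, 0.099 with limma, -0.33 to 0.19 with 1 left out). Calls of Cyp4f14, Cyp20a1, Cyp2f2, Cyp2e1, Cyp7b1, Cyp2d26 and Cyp4f13 were lost under some alternatives. Without cisplatin replicate 3, Cyp2a5, Cyp4a12a and Cyp4f15 (-2.71) were called lower. On summed CPM the CYP4A ratio was 2.44, against 2.89 on TPM, and that of Cyp20a1 1.26, against 1.5. Among the lists, haem breakdown had 6 higher and 0 lower, retinoid genes 5 higher, and haem synthesis 1 higher with library size or limma. The cause was not tested.

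Same-numbered replicates did not deviate together (r = 0.03, -0.14 and -0.15). A pairing with little effect on expression could give such values too, so whether the numbers pair samples is not known. With the replicate block edgeR called 15 P450 genes higher and 16 lower, with Cyp4f14 lost and Cyp4f15 gained, and 2822 genes higher and 2739 lower overall. Depth limits what can be said of genes under about 1 CPM.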
